A study of Mus musculus with 6 samples.

Results

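The double-stranded RNA sensors examined here are 10 mouse genes, chosen by symbol for their function and all found among the 27502 genes of the tables. They comprise 5 genes of the 2′-5′-oligoadenylate synthetase (OAS) family (Oas1a, Oas2, Oas3, Oasl1 and Oasl2), the 3 RIG-I-like receptors (Ddx58, Ifih1 and Dhx58), Eif2ak2, which encodes the kinase PKR, and the Toll-like receptor gene Tlr3. They were measured by RNA-seq in smooth muscle cells grown from mouse aorta, with 3 samples in which the methyltransferase gene Ezh2 was knocked down (labelled siEzh2) and 3 control samples, all at 48 hours. The sources used here do not state the strain, age and number of animals or what the control cells received. Nor do they say whether the samples of a group were separate cultures, so the p-values measure only how these samples vary, and that variation may be technical.

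Double-stranded RNA is rare in the cytosol of healthy cells and is a common product of viral replication. OAS enzymes that bind it make 2′-5′-linked oligoadenylates (2-5A), second messengers of the antiviral response. RIG-I-like receptors signal through the mitochondrial adaptor MAVS to the interferon regulatory factors IRF3 and IRF7, PKR phosphorylates the translation factor eIF2α, and TLR3 reads double-stranded RNA in endosomes through the adaptor TRIF. Most of these sensors are themselves induced by interferon through ISGF3, a complex with STAT2 and IRF9 that binds the interferon-stimulated response element (ISRE) in promoters.

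Each sensor had a higher transcript level in siEzh2 than in control samples, by very unequal amounts. Mean FPKM (fragments counted per unit of gene length and of sequencing depth) was 3.39 to 8.91 times the control mean in the 5 OAS family genes, 1.11 to 2.23 times in the 3 RIG-I-like receptors, 1.53 times in Eif2ak2 and 1.34 times in Tlr3. In all 10 genes the lowest siEzh2 sample lay above the highest control sample, an arrangement found in 30.0% of the 11869 genes tested and in 26.2% of the 16277 genes that reached 0.2 FPKM on average in a group. Of the 9 sensors tested by limma on log2(FPKM + 1), all 9 were higher at an adjusted p under 0.05, as were 24.1% of those genes, and 4 of them (Oas1a, Oas2, Oasl1 and Oasl2) were higher by at least 1 on the log2 scale, as were 0.691%. Their median log2 fold change was 0.77, against 0.01 over all tested genes. Oas1a and Oasl1 reached the filter, a mean of 1 FPKM in a group, only through the siEzh2 samples, so their tests favour a difference and these summaries are descriptions. Oas3 was under that filter, and it reached the lower one of 0.2 FPKM only through the siEzh2 samples too. With the filter at 0.2 FPKM 10 of 10 sensors were called higher, against 17.8% of genes, with no filter 9 of 10, against 10.1% of genes, and with limma-voom on recovered reads 10 of 10, against 22.9% of genes.

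**Figure D1:**
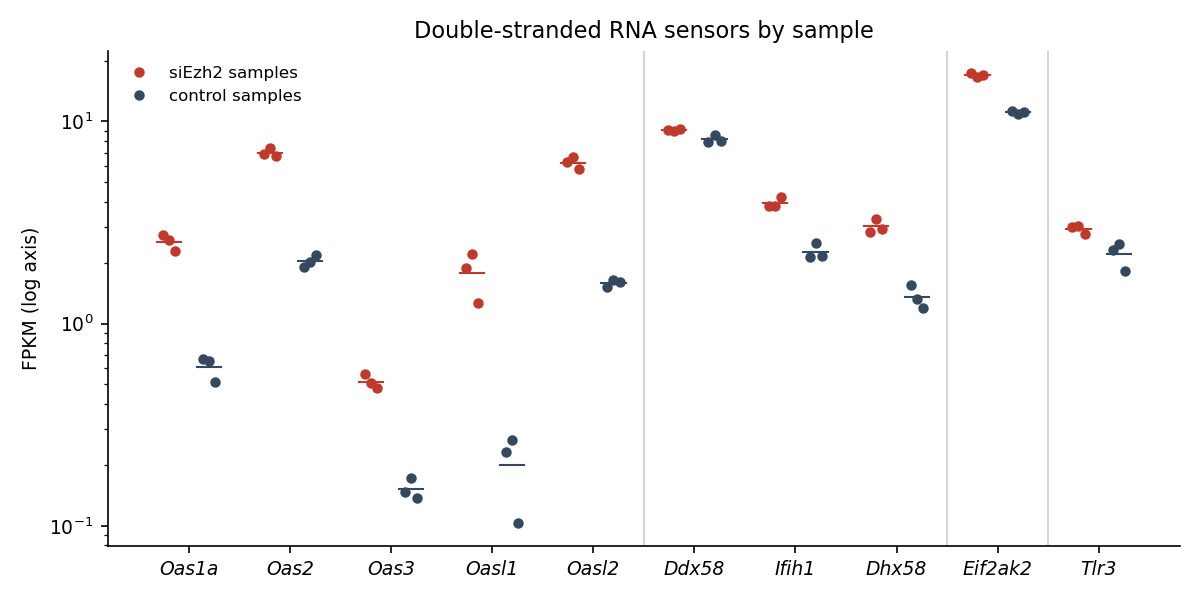
FPKM (log axis) of the 10 sensors in each of the 3 siEzh2 samples (red, left of each pair) and the 3 control samples (dark, right), with a line at each mean. No pair of groups overlaps, and the gap is widest for Oasl1 (8.91 times) and narrowest for Ddx58 (1.11 times).

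Ezh2 checked the labels, with 1.20, 1.09 and 1.05 FPKM in siEzh2 samples and 3.41, 3.59 and 3.88 FPKM in control samples. Reads recovered from the FPKM steps totalled 16080005 to 17553744 in siEzh2 libraries and 18248440 to 18753124 in control libraries. Of 6 smooth muscle markers, Acta2 (537 ± 17.8 FPKM in siEzh2 and 699 ± 14.8 in control samples), Myl9 (65.5 ± 0.742 and 154 ± 2.43) and Smtn (10.4 ± 0.841 and 13.4 ± 0.252, SD, n = 3 each) were well expressed, Myh11 and Cnn1 had group means of 1.04 to 1.83 FPKM, and Tagln had 0.228 FPKM in siEzh2 and 0.253 in control samples. Antisense genes cover 67.9% of the exon bases of Tagln. Since the sources used here do not say whether the counting used the strand, the level of Tagln is uncertain. Of the 5 smooth muscle markers tested, 4 were lower in siEzh2 samples and 0 higher (against 22.7% and 24.1% of all tested genes, limma). Myl9 fell by the most (log2 fold change −1.22, adjusted p = 3.57e-05, limma). The list summed to 596 to 635 FPKM in siEzh2 and 855 to 880 FPKM in control samples. Among 10 macrophage and leukocyte markers the defining genes Ptprc and Itgam were at or near 0 in every sample (at most 0.0340 FPKM). Another gene on the same strand covers 68.7% of the exon bases of Itgam, so the counting could have dropped Itgam reads and its level is uncertain. The summed level of the marker list was lower in siEzh2 (14.4 to 15.3 FPKM) than in control samples (17.5 to 20.7). Of the 4 tested, Csf1r and Lyz2 were lower (0.309 and 0.426 times the control mean) and Cd68 and Cd14 higher (1.20 and 1.29 times, adjusted p = 0.0377 and 0.0375, limma). Cd14 lost its call without siEzh2 sample 1 or 3 (adjusted p = 0.0882 and 0.104) or control sample 2 or 3 (adjusted p = 0.0903 and 0.0943, limma). The 5 endothelial markers summed to 3.48 to 3.84 FPKM in siEzh2 and 2.17 to 2.42 FPKM in control samples, with the defining markers Pecam1 and Cdh5 at 0.333 FPKM or less everywhere. Kdr, the only one tested, was higher (1.39 times, adjusted p = 0.00337, limma). Every siEzh2 sample lay above every control sample for Kdr, Tek (2.58 times) and Vwf (2.24 times), as in 26.2% of genes that reached 0.2 FPKM. Tek and Vwf had group means under 1 FPKM. Pecam1 went the other way, with every siEzh2 sample below every control sample (0.464 times, on 25 and 59 reads). The 13 mitochondrially encoded transcripts summed to 15861 to 16976 FPKM in siEzh2 and 19081 to 19794 FPKM in control samples. Their part in the sensor results was not tested. In bulk RNA, more cells that express a gene and more of its RNA per cell cannot be told apart.

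Promoter windows of 8 of the 10 sensors were found in RefSeq's table (build GRCm38.p6, the NCBI name of mm10), covering 250 bases before and 50 after the annotated start site. They were searched on both strands for an ISRE core (GAAA, any 2 bases, GAAA) and for a gamma-activated site (GAS) core (TTC, any 3 bases, GAA), an element of interferon gamma responses. The ISRE core stood in 5 of the 8 windows, those of Oas1a, Oas3, Ddx58, Ifih1 and Eif2ak2, and in 3.44% of all 32851 windows of the same length. The GAS core stood in 2 of the 8, Oas1a and Eif2ak2, and in 8.30% of all windows. Windows of Oas2 and Dhx58 are not analysed here. A match is a string of letters and not a shown binding site, and no match says only that these letters are absent from this window.

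The window of Oas1a is shown because it held 2 overlapping matches right before its start site, and that of Oasl2 because it held none although Oasl2 had the largest log2 fold change of the 9 tested sensors. Both are the 250 bases before the start site, 5′ to 3′ on the gene's strand, Oas1a from chr5:120907526-120907775 (minus strand) and Oasl2 from chr5:114896684-114896933 (plus strand), with ISRE cores in capitals.
Oas1a: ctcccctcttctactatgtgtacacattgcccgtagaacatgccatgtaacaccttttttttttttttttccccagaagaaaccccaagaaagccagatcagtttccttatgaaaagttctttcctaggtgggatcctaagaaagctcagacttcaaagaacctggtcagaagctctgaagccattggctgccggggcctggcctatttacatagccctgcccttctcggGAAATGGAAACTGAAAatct
Oasl2: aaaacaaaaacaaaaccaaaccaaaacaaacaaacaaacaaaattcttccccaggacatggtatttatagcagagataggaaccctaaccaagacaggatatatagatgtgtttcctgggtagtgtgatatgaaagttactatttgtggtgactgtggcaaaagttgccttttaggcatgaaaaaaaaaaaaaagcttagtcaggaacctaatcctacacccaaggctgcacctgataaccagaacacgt
The other matches are printed with up to 10 bases on each side, to show how the same core sits in sensors that changed by different amounts. They lie on the minus strand at chr5:120777715-120777744 (Oas3), chr4:40239804-40239833 (Ddx58), chr2:62646206-62646233 (Ifih1) and chr17:78882535-78882564 (Eif2ak2), the core in capitals, and that of Ddx58 reads on the strand opposite to the gene.
Oas3: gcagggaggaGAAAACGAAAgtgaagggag
Ddx58: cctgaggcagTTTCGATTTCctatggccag
Ifih1: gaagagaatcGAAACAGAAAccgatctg
Eif2ak2: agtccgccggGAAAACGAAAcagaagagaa
The cores of Oas3 and Eif2ak2 are the same 10 letters. They started 75 bases before the start site in Oas3 and 19 bases after it in Eif2ak2, whose mean FPKM was 3.39 and 1.53 times the control mean.

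**Figure D2:**
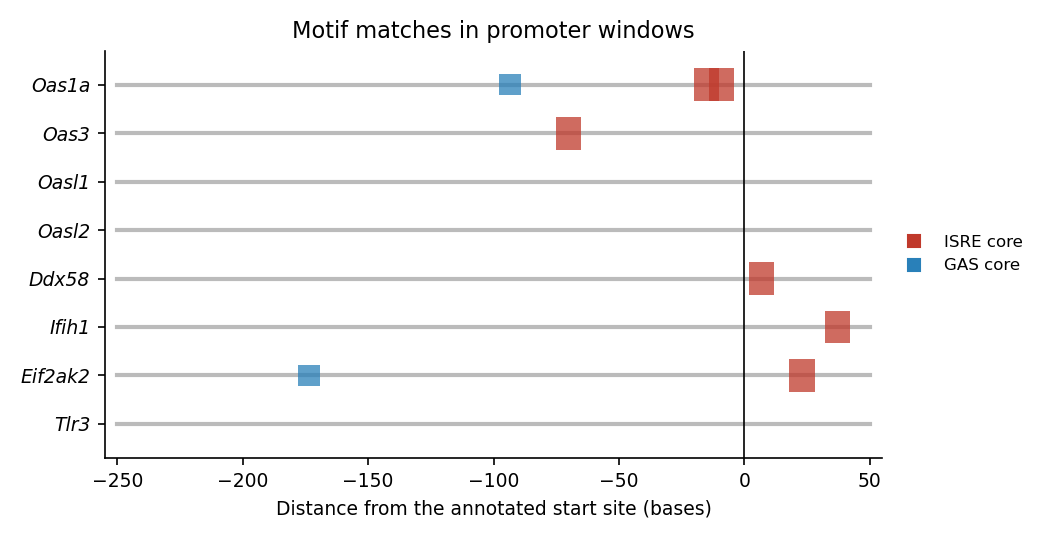
Matches to the ISRE core (red) and the GAS core (blue) in 8 promoter windows, by distance in bases from the annotated start site (0), with the gene's direction running left to right. Oas1a and Oas3 carry the ISRE core before the start site and Ddx58, Ifih1 and Eif2ak2 after it, while Oasl1, Oasl2 and Tlr3 carry neither motif in this window.

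Among the OAS enzymes, Oas2 (ENSMUSG00000032690, chromosome 5 from 120730333 to 120749853, minus strand, mm10) was the most abundant. It had 6.86, 7.42 and 6.76 FPKM in siEzh2 samples, against 1.91, 2.01 and 2.19 FPKM in control samples. The 3 siEzh2 samples lay close together, all far above the highest control sample. The log2 fold change was 1.40 (SE 0.0521, adjusted p = 3.98e-05, limma) on 1595 reads over the siEzh2 and 504 over the control samples. Oasl2 (ENSMUSG00000029561, chromosome 5 from 114896936 to 114912234, plus strand), which in mouse is an OAS-like protein that keeps synthetase activity, had 6.27, 6.67 and 5.80 FPKM in siEzh2 samples, against 1.51, 1.65 and 1.60 FPKM in control samples. It rose by 1.49 on the log2 scale (SE 0.0532, adjusted p = 3.62e-05, limma), on 2033 and 562 reads.

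Oas1a (ENSMUSG00000052776, chromosome 5 from 120896256 to 120907521, minus strand), an active synthetase, had 2.74, 2.60 and 2.29 FPKM in siEzh2 samples, against 0.668, 0.650 and 0.514 FPKM in control samples. Sample 3 was the lowest of its group in both, and the groups stood well apart. The mean was 4.16 times the control mean and the log2 fold change 1.14 (SE 0.0638, adjusted p = 9.36e-05, limma), a scale that understates the change of low genes: with a pseudocount of 0.1 it was 1.90. Of the distinct 50-base words in the annotated Oas1a transcripts 57.6% also occur in transcripts of Oas1g or Oas1b, so the counting could have split or dropped reads of these near-identical copies and the separate level of Oas1a is uncertain. Oas1g was listed at 13 reads over the siEzh2 and 3 over the control samples. Oas1b, a gene that carries a truncating mutation in many laboratory strains and that GENCODE lists as a polymorphic pseudogene, shared 2.98% of its words with other genes. It had 2.50, 2.34 and 2.60 FPKM in siEzh2 samples, against 1.07, 0.749 and 1.14 FPKM in control samples, and rose by 0.81 (SE 0.0814, adjusted p = 6.20e-04, limma), having passed the filter only through the siEzh2 samples.

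Oasl1 (ENSMUSG00000041827, chromosome 5 from 114923240 to 114937915, plus strand) lacks synthetase activity and in mouse restrains translation of Irf7. It had 1.88, 2.20 and 1.26 FPKM in siEzh2 samples, against 0.231, 0.266 and 0.103 FPKM in control samples. Both groups had their lowest value in sample 3, and Oasl1 had the largest spread of the 10 genes relative to its mean in control samples. The FPKM ratio of 8.91 rests on 237 reads over the siEzh2 samples and 29 over the control samples, and the log2 fold change was 1.20 (SE 0.133, adjusted p = 8.69e-04, limma). On recovered reads, with limma-voom, it was 3.14. An antisense gene covers 1.46% of its exon bases.

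Oas3 (ENSMUSG00000032661, chromosome 5 from 120753098 to 120777661, minus strand), the largest of the synthetases, was the least abundant sensor. It had 0.563, 0.507 and 0.479 FPKM in siEzh2 samples, against 0.147, 0.173 and 0.137 FPKM in control samples, which are 64, 63 and 59 reads against 19, 23 and 18. The groups did not overlap, at a mean 3.39 times that of the control samples. With the filter at 0.2 FPKM its log2 fold change of 0.40 had an adjusted p of 0.00126 (limma), a test it entered only through its siEzh2 level, and on recovered reads it was 1.72 (adjusted p = 2.11e-06, limma-voom).

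**Figure D3:**
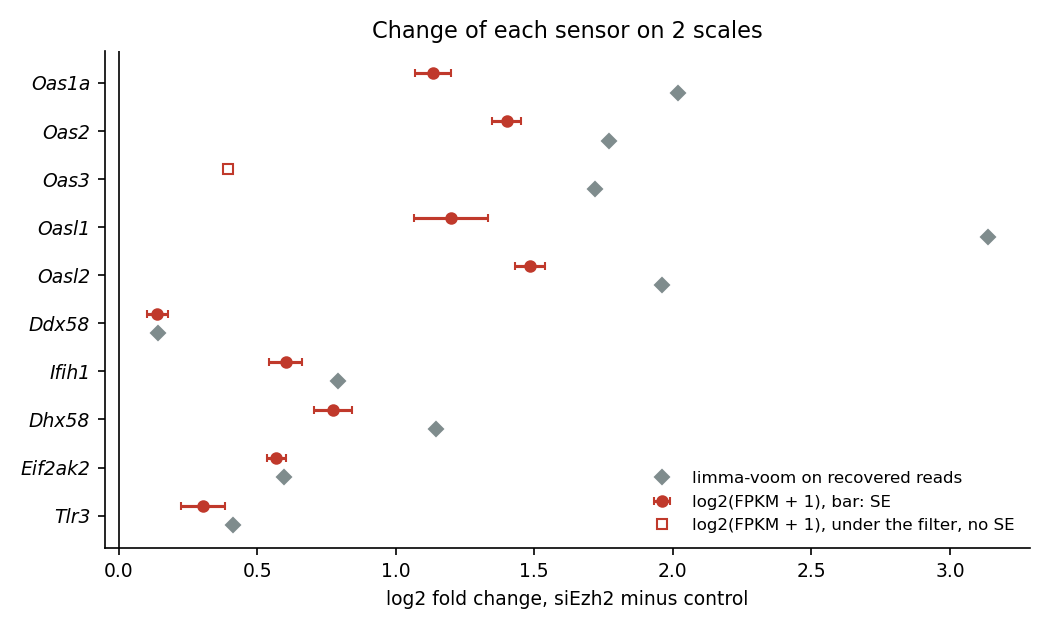
Log2 fold change, siEzh2 minus control, of each sensor on log2(FPKM + 1) (red, bars are SE from limma, open square for the untested Oas3) and by limma-voom on recovered reads (grey diamonds). Both scales put all 10 genes above 0, and the low genes Oasl1 and Oas3 differ most between scales, at 1.20 and 3.14 for Oasl1.

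The OAS genes lie in 2 clusters on chromosome 5, one with Oas1a, Oas1b, Oas2 and Oas3 and one with Oasl1 and Oasl2 side by side. Within 100 kb of the Oasl pair 4 other genes were tested, of which 0 were higher and 1 lower by limma, against 24.1% and 22.7% of all tested genes. The lower gene was 2210016L21Rik, on the side of Oasl1 (log2 fold change −0.15, adjusted p = 0.0427, limma). Ankrd13a, on the side of Oasl2, had 36.1 ± 0.148 FPKM in siEzh2 and 35.1 ± 1.14 in control samples (SD, n = 3 each), and Sppl3 on the other side 5.73 ± 0.0992 and 5.80 ± 0.406 FPKM (SD, n = 3 each). These named neighbours were chosen after their values were seen. Around the larger cluster 6 other genes were in the tables and 0 were tested, since all had under 1 FPKM. The other members lie on chromosomes 2, 4, 8, 11 and 17.

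The RIG-I-like receptors moved unequally. Ifih1 (ENSMUSG00000026896, chromosome 2 from 62595798 to 62646255, minus strand) encodes MDA5, which binds long double-stranded RNA. It had 3.80, 3.83 and 4.24 FPKM in siEzh2 samples, against 2.13, 2.50 and 2.16 FPKM in control samples, and rose by 0.60 on the log2 scale (SE 0.0603, adjusted p = 6.18e-04, limma). Dhx58 (ENSMUSG00000017830, chromosome 11 from 100694884 to 100704271, minus strand) encodes LGP2, which lacks the signalling domains of the other RIG-I-like receptors and modulates them. It had 2.85, 3.29 and 2.95 FPKM in siEzh2 samples, against 1.56, 1.32 and 1.20 FPKM in control samples, and rose by 0.77 (SE 0.0696, adjusted p = 4.20e-04, limma). The groups were apart for both genes, and an antisense gene covers 4.31% of the exon bases of Dhx58.

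Ddx58 (ENSMUSG00000040296, chromosome 4 from 40203773 to 40239828, minus strand) encodes RIG-I, which binds RNA ends with a 5′ triphosphate, and it changed least of the 9 tested sensors. It had 9.09, 9.01 and 9.19 FPKM in siEzh2 samples, against 7.94, 8.53 and 8.03 FPKM in control samples. The groups were separate by a narrow margin, with a log2 fold change of 0.14 (SE 0.0381, adjusted p = 0.0254, limma) on 3275 and 3203 reads. The call was lost without siEzh2 sample 1, 2 or 3 (adjusted p = 0.0589, 0.0581 and 0.0670) and without control sample 1 or 3 (adjusted p = 0.0767 and 0.0793, limma), so it rests on all samples but control sample 2. In rank of log2 fold change it stood at 3454 of 11869 tested genes, where Dhx58 stood at 215 and Ifih1 at 402.

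The balance among the receptors can be read within each sample, which removes scaling between libraries. The ratio of Ifih1 to Ddx58 FPKM was 0.418, 0.425 and 0.461 in siEzh2 samples and 0.268, 0.293 and 0.269 in control samples. For Dhx58 to Ddx58 it was 0.313, 0.365 and 0.321 in siEzh2 samples and 0.196, 0.155 and 0.150 in control samples. Both ratios were thus higher in each siEzh2 sample than in any control sample. The ratio of Oas2 to Oas3 overlapped, at 13.6 ± 1.28 in siEzh2 and 13.5 ± 2.24 in control samples (SD, n = 3 each). The ratio of Oasl2 to Oasl1 was 3.66 ± 0.844 in siEzh2 and 9.40 ± 5.25 in control samples (SD, n = 3 each), with no overlap, and its control spread comes from control sample 3 (15.5). Of 8 such pairs, chosen after the values were seen, 5 did not overlap and each had an exact two-sided permutation p of 0.10, the smallest that 3 against 3 samples allow, and 0.160 adjusted over the 8 pairs.

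Eif2ak2 (ENSMUSG00000024079, chromosome 17 from 78852564 to 78882573, minus strand) was the most abundant sensor in both groups. It had 17.3, 16.5 and 17.0 FPKM in siEzh2 samples, against 11.3, 10.9 and 11.1 FPKM in control samples. The values within each group lay close together and the groups far apart, and the gene rose by 0.57 on the log2 scale (SE 0.0349, adjusted p = 1.16e-04, limma). Antisense genes cover about 4.32% of its exon bases.

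Tlr3 (ENSMUSG00000031639, chromosome 8 from 45395665 to 45411080, minus strand) had 3.02, 3.03 and 2.77 FPKM in siEzh2 samples, against 2.30, 2.47 and 1.83 FPKM in control samples. Control sample 3 was lowest, and the highest control sample came within 0.3 FPKM of the lowest siEzh2 sample. Its log2 fold change was 0.30 (SE 0.0804, adjusted p = 0.0227, limma). With no filter on low values the call was lost (adjusted p = 0.0591, limma), as it was on leaving out siEzh2 sample 1 (adjusted p = 0.0650) or 2 (adjusted p = 0.0671). An antisense gene covers 7.32% of its exon bases, and the sources used here do not say whether the counting used the strand.

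Put together, the 10 transcripts summed to 54.4, 55.1 and 52.7 FPKM in siEzh2 samples, against 29.7, 30.4 and 28.9 FPKM in control samples. FPKM is scaled by gene length, here the annotated exon length, so levels can be compared between genes only roughly. The level of Oas1a is uncertain, as given above. The 5 OAS genes made up 33.7%, 35.2% and 31.5% of that sum in siEzh2 samples and 15.0%, 15.6% and 15.7% in control samples. The RIG-I-like receptors held 29.8% of it on average in siEzh2 and 39.7% in control samples, and PKR 31.4% and 37.4%. The OAS genes were thus the largest class in siEzh2 samples 1 and 2 and the smallest but Tlr3 in each control sample.

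**Figure D4:**
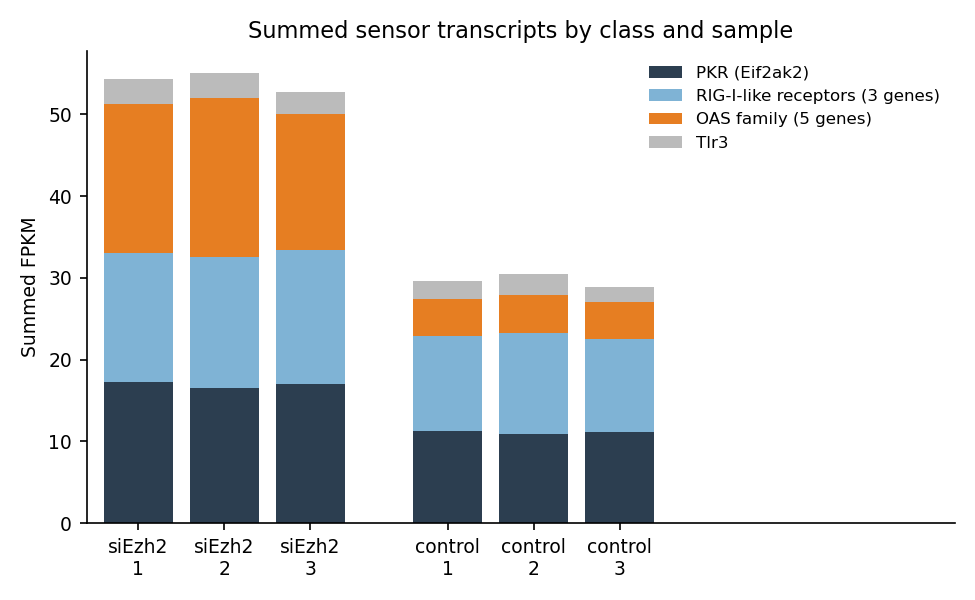
FPKM of the 10 sensors summed by class and stacked for each siEzh2 sample (left 3 bars) and control sample (right 3 bars). The OAS family sums to 16.6 to 19.4 FPKM in siEzh2 samples and 4.46 to 4.75 FPKM in control samples.

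The order of levels also differed. In siEzh2 samples it ran from Eif2ak2 (16.9 ± 0.393 FPKM, SD, n = 3) through Ddx58, Oas2, Oasl2, Ifih1, Dhx58, Tlr3, Oas1a and Oasl1 to Oas3 (0.516 ± 0.0424 FPKM, SD, n = 3). Only Dhx58 and Tlr3 were neighbours whose ranges overlapped. In control samples Eif2ak2 (11.1 ± 0.194 FPKM, SD, n = 3) was followed by Ddx58, Ifih1, Tlr3, Oas2, Oasl2, Dhx58, Oas1a, Oasl1 and Oas3. There the ranges of neighbours overlapped for Ifih1 and Tlr3, Tlr3 and Oas2, Oasl2 and Dhx58, and Oasl1 and Oas3. Over the 6 samples the profiles nearest to that of Oasl2, by Euclidean distance between log2(FPKM + 1) values centred on the control mean, were Ifit1, an interferon-induced RNA-binding protein (distance 0.159), the predicted gene Gm33228 (0.166) and Btc, the growth factor betacellulin (0.208).

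Genes listed in the pathways of the sensors, which include regulators of the sensors such as Trim25, did not move as one. In the RIG-I-like receptor pathway 5 of 25 tested genes were higher, 7 lower and 13 did not pass (limma), with a median log2 fold change of −0.01, where 24.1% of all tested genes were higher and 22.7% lower. The counts of this list were thus near those shares. Irf7, the interferon-induced regulatory factor, had 7.43 ± 0.336 FPKM in siEzh2 and 2.47 ± 0.144 in control samples (SD, n = 3 each) and rose by 1.28 (adjusted p = 4.02e-05, limma). Trim25, a ubiquitin ligase that activates RIG-I, had 15.0 ± 1.32 FPKM in siEzh2 and 8.55 ± 0.412 in control samples (SD, n = 3 each) and rose by 0.74 (adjusted p = 4.95e-04, limma). Sting1, the adaptor of cytosolic DNA sensing, had 12.5 ± 1.04 FPKM in siEzh2 and 20.4 ± 0.476 in control samples (SD, n = 3 each) and fell by 0.67 (adjusted p = 4.71e-04, limma). Mavs, on which RIG-I and MDA5 converge, had 15.1 ± 0.316 FPKM in siEzh2 and 19.7 ± 1.21 in control samples (SD, n = 3 each) and fell by 0.36 (adjusted p = 0.00203, limma). Irf3, the constitutive counterpart of Irf7, had 6.82 ± 0.623 FPKM in siEzh2 and 9.81 ± 0.701 in control samples (SD, n = 3 each) and fell by 0.47 (adjusted p = 0.00350, limma). The kinase gene Tbk1 had 11.0 ± 0.0827 and 10.7 ± 0.292 FPKM (SD, n = 3 each, siEzh2 and control samples), a difference that did not pass (adjusted p = 0.533, limma). Mavs, Irf3 and Tbk1 were chosen after their values were seen.

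The genes listed around OAS and PKR, which are not all direct partners, did not share 1 direction of change. Of the 2-5A effectors 1 of 3 tested genes was higher and 0 lower, against 24.1% and 22.7% of all tested genes (limma, and limma-voom gave 1 effector lower). Enpp1, a phosphodiesterase, had 2.01 ± 0.120 FPKM in siEzh2 and 1.43 ± 0.115 in control samples (SD, n = 3 each) and rose by 0.31 (adjusted p = 0.00400, limma). In the PKR pathway 4 of 11 tested genes were higher and 3 lower (against the same 24.1% and 22.7%), with a median of 0.02 (limma). Ppp1r15a and Ppp1r15b, which encode the subunits that direct a phosphatase to eIF2α, rose by 0.37 and 0.22 (adjusted p = 0.00139 and 0.00740, limma; an antisense gene covers 11.4% of the exon bases of Ppp1r15b). Dnajc3, whose product inhibits PKR, fell by 0.20 (adjusted p = 0.00567, limma). Prkra, whose product PACT activates PKR, fell by 0.27 (adjusted p = 0.0139, limma), and Eif2s1, which encodes eIF2α itself, had 21.2 ± 1.31 FPKM in siEzh2 and 20.8 ± 0.638 in control samples (SD, n = 3 each). The last 2 were chosen after their values were seen.

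In the TLR3 pathway 3 of 11 tested genes were higher and 3 lower (against 24.1% and 22.7% of all tested genes), with a median of −0.10 (limma). The higher genes were Tlr7, Ticam1 and Cd14, and Cd14 lost its call with some samples left out, as given above. Tlr7, an endosomal receptor of single-stranded RNA, had 1.42 ± 0.0564 FPKM in siEzh2 and 0.635 ± 0.0930 in control samples (SD, n = 3 each) and rose by 0.57 (adjusted p = 4.23e-04, limma), having also passed the filter only through the siEzh2 samples. Ticam1, which encodes TRIF, rose by 0.23 (adjusted p = 0.00528, limma). Hsp90b1, a chaperone of several Toll-like receptors, fell by 0.27 (adjusted p = 9.71e-04, limma). An antisense gene covers 10.3% of the exon bases of Hsp90b1.

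A further list held other double-stranded RNA-binding proteins and genes grouped with them, such as Mlkl, Lrpprc and Pnpt1. In it 7 of 20 tested genes were higher and 5 lower (against 24.1% and 22.7% of all tested genes), with a median of 0.07 (limma). Zbp1, a sensor of left-handed Z-RNA, stood out, with 7.05 ± 0.793 FPKM in siEzh2 and 2.30 ± 0.192 in control samples (SD, n = 3 each), and rose by 1.29 (adjusted p = 1.30e-04, limma). Pnpt1, which degrades RNA in mitochondria, rose by 0.40 (adjusted p = 6.58e-04, limma). Adar, which edits double-stranded RNA and so keeps a cell's own transcripts from the sensors, had 6.87 ± 0.430 FPKM in siEzh2 and 5.33 ± 0.0435 in control samples (SD, n = 3 each) and rose by 0.31 (adjusted p = 0.00285, limma; it was chosen after its value was seen, and an antisense gene covers 16.8% of its exon bases). Adarb1, another editing gene of the list, had 0.599 ± 0.0173 FPKM in siEzh2 and 1.13 ± 0.115 in control samples (SD, n = 3 each). It fell by 0.41 (adjusted p = 9.85e-04, limma), having passed the filter only through the control samples, and was also chosen after its value was seen. Stau1, which binds double-stranded regions of messenger RNA, fell by 0.55 (adjusted p = 2.34e-04, limma).

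**Figure D5:**
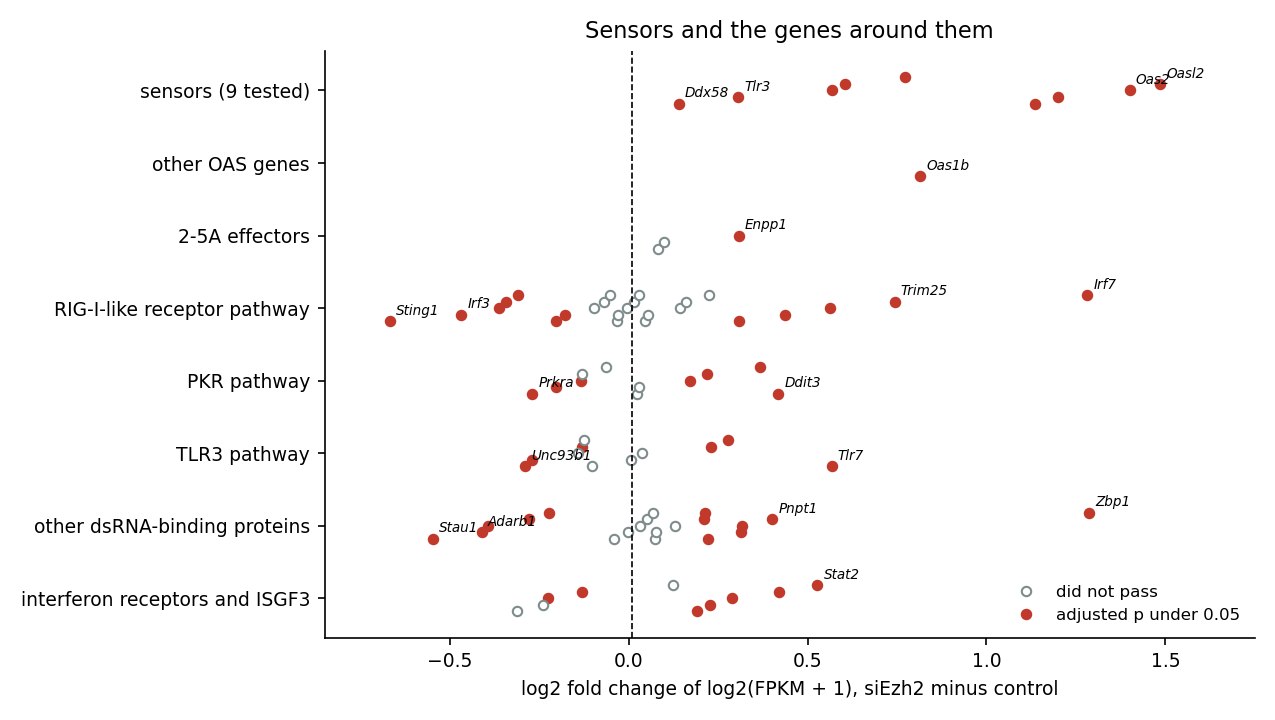
Log2 fold change on log2(FPKM + 1), siEzh2 minus control, of each tested gene in the sensors and in 7 lists around them, filled red where the adjusted p is under 0.05 and open where the gene did not pass, with the median of all tested genes (0.01) dashed. The 9 tested sensors lie above 0, while the RIG-I-like receptor pathway list spans Sting1 (−0.67), of DNA sensing, to Irf7 (1.28).

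Transcripts of interferon itself were barely seen. Of 21 interferon ligand genes 5 were in the tables and the rest are not analysed here. Ifna2 and Ifna4 had 1 read each in siEzh2 sample 1, Ifna12 had 1 in siEzh2 sample 2 and Ifna13 had 1 in control sample 3, with 0 in every other sample. Ifnz had 1, 2 and 2 reads in siEzh2 samples and 0, 0 and 4 in control samples. A count of 0 allows up to 3 reads, which covers counting error only, so levels below that were not detectable at this depth.

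Of the interferon receptors and ISGF3 genes 5 of 10 tested were higher and 2 lower (against 24.1% and 22.7% of all tested genes), with a median of 0.16 (limma). The count of lower genes was 4 with trend and robust settings and with limma-voom, and 1 without siEzh2 sample 3, control sample 1 or control sample 2. Stat2 had 23.8 ± 0.370 FPKM in siEzh2 and 16.2 ± 0.216 in control samples (SD, n = 3 each) and rose by 0.53 (adjusted p = 1.18e-04, limma). Irf9 had 8.18 ± 0.418 FPKM in siEzh2 and 5.86 ± 0.0687 in control samples (SD, n = 3 each) and rose by 0.42 (adjusted p = 6.67e-04, limma). Ifnar1, a subunit of the type I interferon receptor, rose by 0.29 (adjusted p = 0.00209, limma).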

How the data were processed

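The authors deposited 1 table of FPKM per sample, named so per the file headers, from stranded TruSeq mRNA libraries per the labels' protocols. Trimmomatic, Cufflinks, HTSeq, HISAT2 and mm10 are listed, without versions or order, per the submitters' processing notes. The test was limma 3.58.1 (R 4.3.3) on log2(FPKM + 1) for the genes whose mean reached 1 FPKM in either group, which understates changes of low genes, with Benjamini-Hochberg adjustment over all tested genes. SD and ratios are of FPKM. GENCODE M21 (GRCm38) gave positions, exon overlaps and exon lengths and held 99.8% of the gene IDs. With these lengths FPKM gave whole reads within 0.02 for 98.45% to 98.57% of values under 1000 reads, which limma-voom used after trimmed-mean scaling. Sequences are from RefSeq, GRCm38.p6. Python 3.11.15 with scipy 1.17.1 did the rest. Tests were tried on simulated data.

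The sensors and lists were chosen by function with earlier results of these data known. The named genes were the 10 sensors, Ezh2, the 3 tested genes with the smallest p in each list, any interferon ligand above 0 and the 3 nearest profiles. Some genes that this rule names are not reported here.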

Additional observations from a re-analysis of the deposited data

How the results depend on the processing

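The 13 alternatives were a pseudocount of 0.1, no filter, a filter of 0.2 FPKM, quantile normalization, trend and robust on, the replicate number as a block, limma-voom on recovered reads and leaving out each of the 6 samples. No value of a named gene reversed. The number of sensors called higher was 9, against 10 with the filter of 0.2 FPKM and with limma-voom, 8 with the replicate block, and 7 to 9 with 1 sample left out. Same-numbered samples deviated together only weakly (correlations 0.024, 0.070 and 0.040, under the 0.1 set for pairing, though every sample correlated best with its own number), so the numbers were not taken as pairs. The block took the counts over all genes to 2564 higher and 2385 lower, against 2866 and 2695, and ended the call of Ddx58 (log2 fold change 0.14, adjusted p = 0.0618), and it left 1 of the interferon receptor and ISGF3 genes lower, against 2. With 1 sample left out the log2 fold change of Ddx58 was 0.12 to 0.17 and that of Tlr3 0.22 to 0.36. The call of Tlr3 was also lost with no filter (0.30). The value of Oas3, a gene whose levels all lie below the pseudocount of 1, moved to 1.29 with a pseudocount of 0.1 and to 1.72 with limma-voom. The median over all tested genes shifted by at most 0.017. Depth limits Oasl1, Oas3 and Oas1a most, with 29, 60 and 64 reads over the control samples.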
